A study of Homo sapiens with 12 samples.

Results

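Genes for voltage-gated sodium channels, voltage-gated calcium channels and the HCN channels were examined, together with the sodium leak channel *NALCN*, the intracellular fibroblast growth factors *FGF12*, *FGF13* and *FGF14* and the ankyrins *ANK2* and *ANK3*. They were chosen by gene symbol: *SCN* genes ending in A or B, *CACNA1*, *CACNA2D*, *CACNB* and *HCN* genes, and the 6 named ones. Of 19329 genes listed in at least 1 of 2 deposited tables, 40 identifiers met this rule and carried 39 symbols, since *HCN3* stood under 2 identifiers. Both tables listed 39 of the identifiers. *SCN10A* was listed only in the i3N table, with a mean normalized count of 3.99. The lowest one listed was 7.73 in iMNs and 1.37 in i3Ns, so its absence does not show a lower level in iMNs. *CACNA1F*, *CACNA1S* and *CACNA2D4* were in neither table.

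The RNA-seq covered 12 libraries in 4 groups of 3. HB9-iMNs (iMNs) were motor neurons made with small molecules from an iPSC line in which Td-Tomato is driven by the HB9 promoter, and they were sorted for Td-Tomato. The other neurons, i3Ns, were labelled cortical neurons and came from the H1 embryonic stem cell line through doxycycline-induced NGN2. In each cell type 3 libraries carried a scrambled shRNA (SCR) and 3 carried an shRNA against *SMN1* and *SMN2* (*SMN*-KD). Lentivirus delivered the shRNA in all 4 groups, from a vector with a tetracycline-controlled promoter. Each cell type stood for 1 stem cell line, so cell type, line and differentiation method cannot be told apart. In bulk RNA, fewer cells of a type and less RNA per cell cannot be told apart either.

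For each gene the tables give 1 mean over the 6 libraries of a cell type, SCR and *SMN*-KD together, of counts divided by DESeq2 size factors. This mean normalized count is called the level here. Values of single libraries were not analysed here, so no level carries a standard deviation, an n of replicates or a test, and no order of levels could be set against replicate spread. *SMN*-KD and SCR were not compared, and a mean over both cannot check the knockdown. A difference between the cell types can also hold unlike responses to the knockdown, which was not tested. The tables were normalized separately. For comparisons between them, levels were divided by the table total and multiplied by 1e+06, which is called the scaled level here. Differences, and folds between the cell types, are of i3N over iMN after adding 0.1 to the scaled level, and differences are on the log2 scale. For comparisons between genes, levels were divided by the length in kb of the main transcript.

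Voltage-gated sodium channels carry the upstroke of the action potential: a large alpha subunit forms the pore, and small beta subunits, intracellular FGFs and ankyrins set its gating and its place at the axon initial segment. Voltage-gated calcium channels turn depolarization into calcium entry for transmitter release, gene regulation and pacemaking. Their alpha1 subunit forms the pore, while beta and alpha2-delta subunits carry it to the membrane. HCN channels open on hyperpolarization and pass a mixed cation current that shapes resting potential and rhythmic firing.

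The labelled cell types were checked against marker lists. All 8 motor neuron markers were listed in both tables. The cholinergic genes *SLC5A7*, the choline transporter, and *SLC18A3*, the vesicular acetylcholine transporter, stood at 8460 and 3115 in iMNs against 2472 and 1865 in i3Ns, and *CHAT*, choline acetyltransferase, at 533 and 527. *PRPH*, also on this list, stood at 7288 and 5833. The transcription factor markers went the other way: *MNX1*, which encodes HB9, stood at 430 in iMNs and 2279 in i3Ns, and *ISL1* at 1663 and 14299. *ISL2* stood at 70.6 and 3558 and *LHX3* at 15.1 and 230. In i3Ns *ISL1* had the highest level of the motor neuron list. The glutamate transporter genes *SLC17A6* and *SLC17A7* stood at 593 and 50.1 in iMNs and at 11237 and 6490 in i3Ns. Of the same glutamatergic list, *NEUROG2* stood at 263 and 114 and *CUX2* at 1734 and 2033. *POU4F1*, a sensory neuron factor, stood at 24.2 and 13128. Summed over lists of markers, the scaled level was 498 in iMNs and 689.6 in i3Ns for motor neurons, which runs against the labels, 63.2 and 598 for glutamatergic neurons, 7059 and 6276 for neurons, 8.29 and 21.4 for glia, 58.8 and 132 for mesenchymal cells, 2.67 and 1.55 for muscle, 4.91 and 24.0 for proliferation, 4.96 and 94.5 for stem cells, and 9.08 and 313 for sensory neurons. *GFAP*, *AQP4* and *SOX10*, which define glia, were in neither table. In i3Ns single genes made up most of some sums. These were *POU4F1* for sensory neurons, *MBP* at 949 for glia, *COL1A1* at 4228 for mesenchymal cells and *MYH3* at 51.5 for muscle. For stem cells it was *LIN28A* at 4216, where *POU5F1* stood at 34.4 and *NANOG* at 7.73. Whether cells of these other types were present, and their part in the channel levels, was not tested.

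Channel genes were on the whole at somewhat higher levels in iMNs. Summed over the identifiers, their scaled level was 6119 in iMNs and 5144 in i3Ns. Of the 39 compared, 29 (74.4%) were lower in i3Ns, against 48.6% of all 15907 genes compared. Those were listed in both tables with a level of at least 10 in 1 of them, so genes listed in only 1 are not in the background. The median difference was -0.48 on the log2 scale for the channel genes and 0.02 for all genes. Other coding genes spanning at least 100 kb, of which there were 3236, had a median of 0.06. A difference past 4-fold toward i3Ns was found for 2 channel genes (5.13%), *CACNA2D1* and *SCN7A*, against a background of 2.90% of all genes. A difference past 4-fold toward iMNs was found for 5 (12.8%), *CACNA1E*, *CACNA1G*, *CACNA1I*, *CACNA2D3* and *SCN1A*, against 4.66% of all genes. Past 2-fold there were 4 toward i3Ns (10.3%), near the background of 9.58%, and 11 toward iMNs (28.2%), against 13.2%. The other 24 were within 2-fold. With a pseudocount of 1, *SCN11A*, *SCN4B* and *SCN4A* also came within 2-fold. Counts of a few genes carry no test here.

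**Figure D1:**
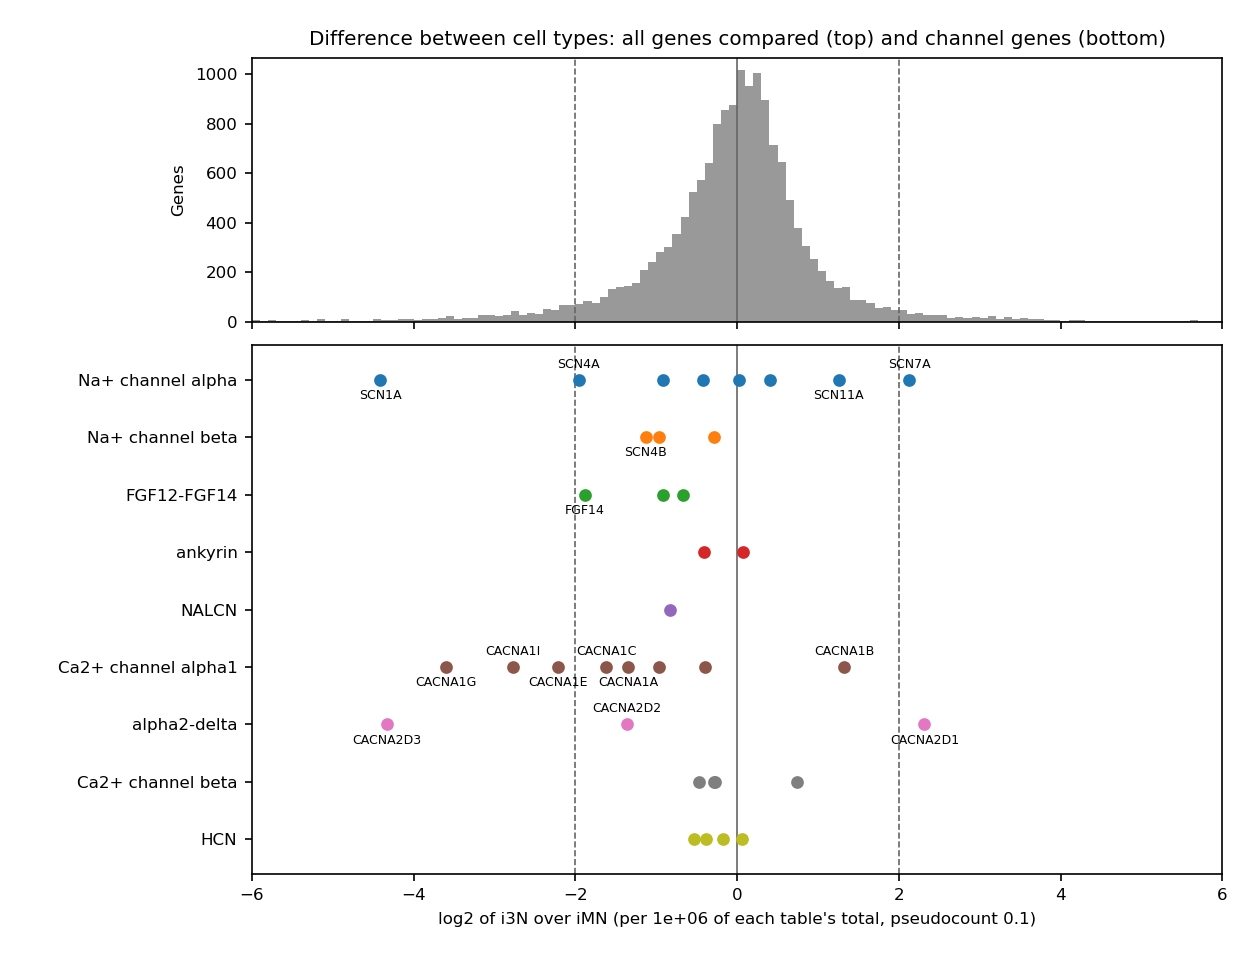
Differences between the cell types, as log2 of i3N over iMN of the scaled level with 0.1 added. The upper panel counts all genes compared in bins, leaving out 62 that lie beyond 6 on either side, and the lower panel has 1 point per channel gene reported here in rows by family, with names for those past 2-fold and dashed lines at 4-fold. The calcium channel alpha1 row lies mostly left of 0, with *CACNA1B* at 1.32 on the right, and the alpha2-delta row runs from -4.33 to 2.32.

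Despite these differences, the order of the channel genes by level per kb was similar in both tables (Spearman's rho 0.88 across 38 genes, which share libraries and transcript lengths and are not independent replicates). The median channel gene stood at percentile 59.3 of the iMN table (38 members) and 49.6 of the i3N table (39 members) by level per kb. These percentiles rank unlike sets, 15713 genes in iMNs and 18138 in i3Ns. The lowest levels listed also differ, 7.73 and 1.37, so percentiles do not measure a difference between the cell types. The highest in both was *ANK2*, ankyrin-B, at percentiles 97.8 and 98.5. *SCN3B*, *ANK3* and *HCN2* were also among the highest in both, at 4029, 2271 and 1552 per kb in iMNs and 2142, 1782 and 1685 per kb in i3Ns. *CACNB3* came next after *ANK2* in i3Ns, at 2554 per kb against 1467 in iMNs. *CACNB1* stood above *HCN2* in iMNs, at 1730 per kb against 1489 in i3Ns.

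**Figure D2:**
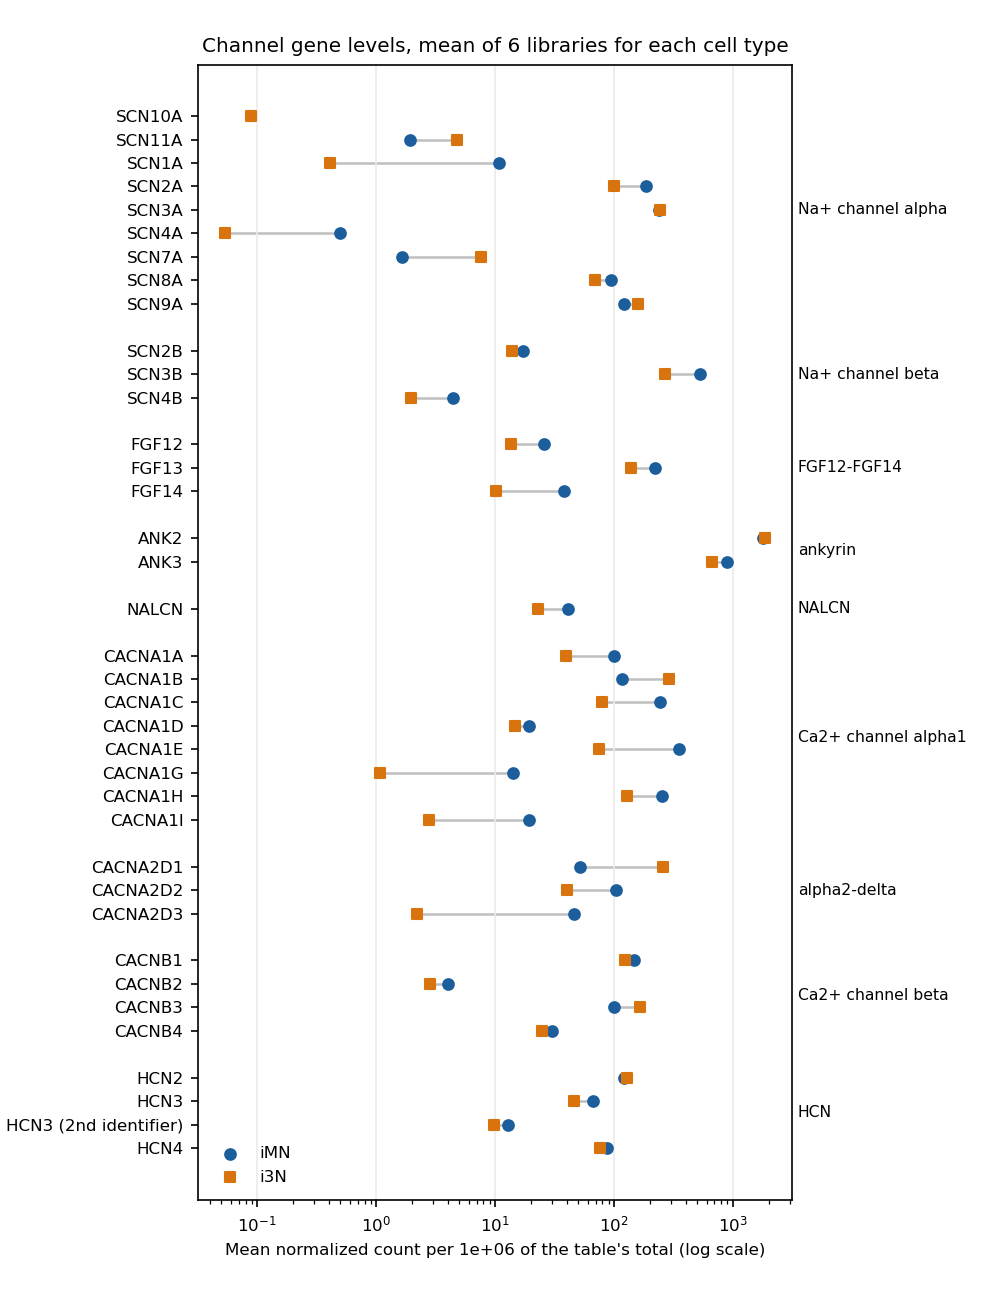
Scaled level of each channel gene reported here on a log axis, from the mean over 6 libraries of each cell type, with 1 row per identifier, a circle for iMNs and a square for i3Ns. Most pairs of points lie close together, and *SCN1A*, *CACNA2D3* and *CACNA1G* show the widest gaps, with the iMN point higher, and *CACNA2D1* lies apart the other way.

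Among the sodium channel alpha subunits, *SCN3A*, *SCN2A*, *SCN9A* and *SCN8A* made up nearly the whole family in both cell types. Their joint share of the family's level per kb was 97.1% in iMNs and 96.5% in i3Ns. *SCN3A*, which encodes Nav1.3 and is most expressed in the developing brain, led in both, with levels of 10448 in iMNs and 11070 in i3Ns and shares of 37.7% and 42.8%. *SCN2A* encodes Nav1.2, a channel of excitatory neurons, and stood at 8086 and 4471. Its share was 30.2% in iMNs and 17.9% in i3Ns, and the difference was -0.91 on the log2 scale. *SCN9A*, the Nav1.7 gene known from pain-sensing neurons, stood at 5226 and 7231, with shares of 17.6% and 26.1%. *SCN8A* encodes Nav1.6, the main channel of the mature initial segment and nodes, and stood at 4063 and 3149, or 11.5% and 9.60% of the family. By share, *SCN2A* came next after *SCN3A* in iMNs, whereas *SCN9A* did in i3Ns.

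Other alpha genes were at far lower levels. *SCN1A*, the Nav1.1 gene best known from inhibitory neurons, had a level of 468 in iMNs and 18.5 in i3Ns, a difference of -4.42, the most negative of all channel genes. With a pseudocount of 1 its difference was -3.07, and that of *CACNA2D3* was then the most negative, at -3.88. Some alpha genes share stretches of sequence, which can bear on how reads are divided among them, and this was not tested. Of the 31-base words of the *SCN1A* transcript, that is all runs of 31 bases in it, 4.49% also occur in other listed genes, most of them in *SCN2A*, whose level in i3Ns was 4471. *SCN7A* was higher in i3Ns, at 72.0 in iMNs and 342 in i3Ns (difference 2.13). *SCN11A*, the Nav1.9 gene of sensory neurons, stood at 83.6 and 214 (1.26, or 0.97 with a pseudocount of 1, within 2-fold). It overlaps *WDR48* on the opposite strand, which stood at 3568 and 5233. *SCN4A* was at 21.5 and 2.42 and *SCN10A* at 3.99 in i3Ns. *SCN7A* was a little beyond the 4-fold line at 4.37-fold and *SCN4A* a little within it at 3.88-fold. The 0.1 added holds down the fold of *SCN4A*, whose scaled levels were only 0.497 in iMNs and 0.0537 in i3Ns. Its place within the 4-fold line thus depends on that setting. With a pseudocount of 1 the difference of *SCN7A* was 1.69, short of 4-fold, and without the 50 highest genes in the table totals that of *SCN4A* was -2.03, past it.

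The beta subunit genes, whose products are adhesion molecules that modulate sodium currents, were led by *SCN3B*. Its level was 22897 in iMNs and 12170 in i3Ns, with a difference of -0.97, and its share of the family was 91.2% and 87.6%. *SCN2B* stood at 739 and 630 and *SCN4B*, which takes part in resurgent current, at 193 and 89.4. These were lower in i3Ns, *SCN4B* by more than 2-fold (-1.13), though with a pseudocount of 1 its difference was -0.87.

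The intracellular FGFs bind the C-terminal tail of sodium channels and shift their inactivation. All 3 were lower in i3Ns. *FGF13*, on the X chromosome, had levels of 9621 in iMNs and 6283 in i3Ns (-0.67) and held 59.6% and 68.3% of the family's level per kb. Its share depended on the length used, with 75.4% and 83.0% by coding length and 77.7% and 85.4% without a length correction. *FGF12* stood at 1111 and 609 (-0.92). *FGF14* stood at 1647 and 461 (-1.88), or 3.68-fold higher in iMNs.

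Ankyrins tie channels to the spectrin skeleton, ankyrin-G at the axon initial segment and ankyrin-B along the axon. *ANK2* had a level of 76904 in iMNs and 83848 in i3Ns, a difference of 0.07. *ANK3*, the ankyrin-G gene, had 38648 and 30325, a difference of -0.41. Their summed scaled level was 2667 in iMNs and 2535 in i3Ns. *NALCN*, the pore of the sodium leak current that sets resting excitability, stood at 1789 and 1041 (-0.83).

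The calcium channel alpha1 family had another make-up in i3Ns than in iMNs. Its summed scaled level was 1116 in iMNs and 632 in i3Ns, and 7 of the 8 genes were lower in i3Ns. The exception was *CACNA1B*, the pore of N-type channels, which serve transmitter release: its level was 5030 in iMNs and 13073 in i3Ns, a difference of 1.32. Its share of the family per kb was 12.0% in iMNs and 47.6% in i3Ns. *CACNA1A*, the P/Q-type pore with the same presynaptic role, stood at 4350 and 1773 (-1.35), or 11.7% and 7.31%. *CACNA1E*, the R-type pore, stood at 15138 and 3397 (-2.21), or 21.5% and 7.38%. The N-type and P/Q-type genes together held 23.7% of the family in iMNs and 54.9% in i3Ns.

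*CACNA1C* and *CACNA1D* encode L-type pores, which couple activity to gene expression and, for the latter, open at lower voltages. *CACNA1C* had a level of 10561 in iMNs and 3570 in i3Ns (-1.62). *CACNA1D* stood at 833 and 658 (-0.40). Of the words of its transcript 14.7% also lie on the opposite strand in *CHDH*, which stood at 127 and 38.4. The L-type genes held 20.0% and 11.8% of the family. Both overlap a decapping enzyme gene on the opposite strand, *DCP1B* at 1120 and 1096 for *CACNA1C* and *DCP1A* at 3326 and 3653 for *CACNA1D*.

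The T-type pores, which open near rest and support burst firing, were unequal in size. *CACNA1H* had a level of 10975 in iMNs and 5835 in i3Ns (-0.97). *CACNA1I* stood at 842 and 125 (-2.77). *CACNA1G* stood at 612 and 48.3 (-3.60), 12.1-fold higher in iMNs. *CACNA1H* alone held 31.1% of the family in iMNs and 25.3% in i3Ns. It led the iMN family by transcript length, whereas *CACNA1E* led it with 31.1% by coding length and with 31.3% without a length correction. *CACNA1B* led the i3N family under all 3 measures.

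**Figure D3:**
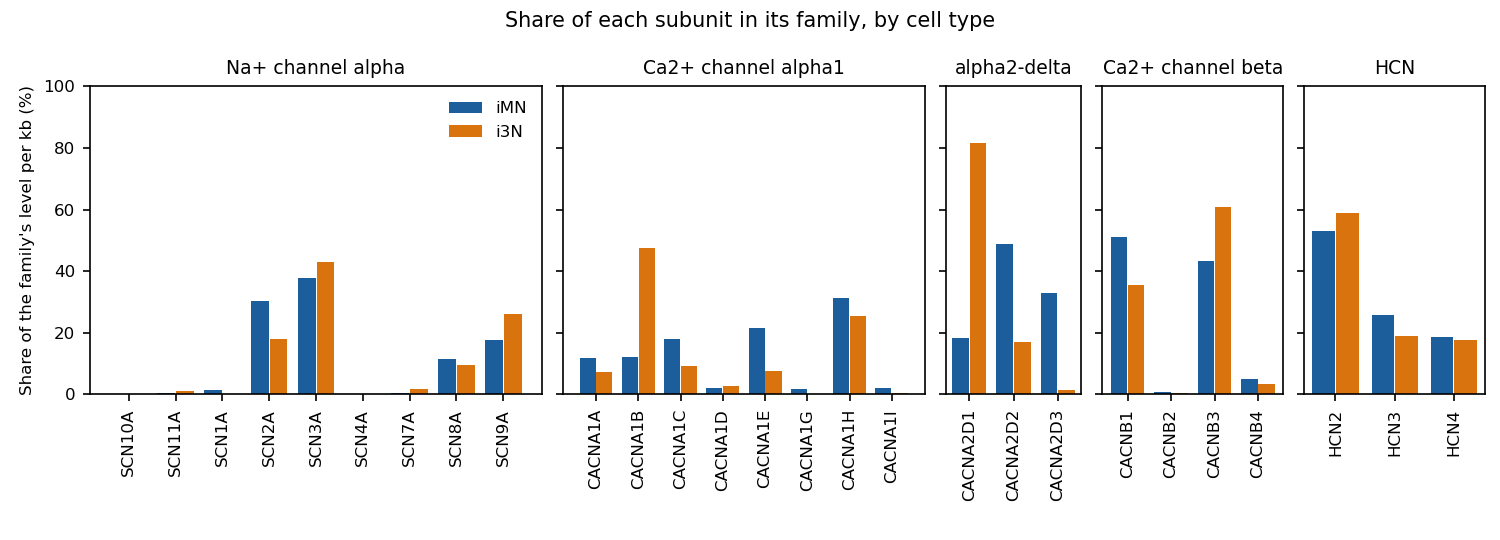
Share of each gene reported here in its family's level per kb, in percent, in 5 panels by family, with a blue bar for iMNs and an orange bar for i3Ns at each gene. *CACNA1B* goes from 12.0% to 47.6% of the alpha1 family between iMNs and i3Ns and *CACNA2D1* from 18.3% to 81.7% of the alpha2-delta family, while *SCN3A* and *HCN2* lead their families in both.

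The alpha2-delta subunits, which raise the number of calcium channels at the surface and are the target of gabapentin in the case of *CACNA2D1* and *CACNA2D2*, divided by cell type. *CACNA2D1* had a level of 2236 in iMNs and 11605 in i3Ns, a difference of 2.32, or 4.98-fold higher in i3Ns. *CACNA2D2* stood at 4510 and 1818 (-1.36). *CACNA2D3* stood at 2010 and 99.7 (-4.33), 20.1-fold higher in iMNs. In iMNs the shares were 48.9% for *CACNA2D2*, 32.8% for *CACNA2D3* and 18.3% for *CACNA2D1*. In i3Ns *CACNA2D1* held 81.7%, *CACNA2D2* 16.9% and *CACNA2D3* 1.40%. The summed scaled level of the family was 202 in iMNs and 300.2 in i3Ns.

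The beta subunits bind the alpha1 pore inside the cell and carry it to the membrane. *CACNB1* and *CACNB3* together made up most of the family, and their order was reversed between the cell types. *CACNB1* had levels of 6420 in iMNs and 5526 in i3Ns (-0.27), with shares of 51.0% and 35.4%. *CACNB3* stood at 4300 and 7487 (0.74), with shares of 43.3% and 60.7%. *CACNB4* stood at 1313 and 1120 (-0.29), and *CACNB2*, the main beta subunit of the heart, at 174 and 129 (-0.48). Of the words of the *CACNB4* transcript 13.9% also lie in an overlapping gene on the same strand, which was listed at 67.3 and 42.9.

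Among the HCN genes *HCN2* led in both cell types, with a level of 5307 in iMNs and 5764 in i3Ns (0.06) and shares of 53.1% and 58.9%. *HCN4*, the slowest-opening form and the main one of the cardiac pacemaker, stood at 3767 and 3468 (-0.18), or 18.6% and 17.5%. *HCN3* stood at 2901 and 2086 (-0.53), or 25.9% and 19.0%. The order of *HCN3* and *HCN4* depended on the length used. Without a length correction *HCN4* held 29.8% in iMNs and 27.5% in i3Ns, and *HCN3* 22.9% and 16.5%. By coding length *HCN3* led *HCN4* in iMNs (27.5% and 23.0%) but not in i3Ns (19.9% and 21.3%). A second *HCN3* identifier, which has no position in the annotation used, held 16.0% and 17.4% of the *HCN3* sum. *HCN2* shares 24.4% of its words with other listed genes, 21.7% with a pseudogene that was listed only in i3Ns, at 38.5. Of the *HCN3* words 13.8% lie on the opposite strand in *PKLR*, which was listed only in i3Ns, at 3.15, under the lowest level listed in iMNs.

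Partners of these channels were taken from a list of 31 genes, of which 28 could be compared. Past 4-fold there was 1 (3.57%, against 4.66% of all genes), *STAC2*, an adaptor of L-type channels, at 562 in iMNs and 59.9 in i3Ns (-3.19). Past 2-fold 3 were higher in i3Ns (10.7%) and 4 in iMNs (14.3%), near the 9.58% and 13.2% of all genes, and the median difference was -0.14. *NFASC* and *NRCAM*, adhesion molecules of the initial segment and nodes, stood at 11572 and 13236 in iMNs and 17815 and 14333 in i3Ns. *NEDD4L*, a ubiquitin ligase that removes sodium channels from the surface, stood at 6959 and 17360 (1.26). *CACNG4* and *CACNG7*, of the gamma subunit family whose members also serve AMPA receptors, stood at 12613 and 5657 in iMNs and 8349 and 6301 in i3Ns. The ankyrin gene *ANK1* stood at 7938 and 4679, and *RIMS1*, which tethers calcium channels at the release site, at 5003 and 6388.

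The channel genes are long. Their median span in the genome was 197 kb against 34.1 kb for the 16222 protein-coding genes of the tables, and 27 of 39 (69.2%) spanned at least 100 kb against 21.5%. Their median coding length was 5214 bases against 1395, and their median number of exons 27 against 9. The longest in the genome was *CACNA2D3* at 952 kb, followed by *CACNA1C* at 727 kb and *ANK3* at 707 kb. The libraries were made from total RNA after removal of ribosomal RNA, which leaves unspliced RNA in, and its part in the levels was not tested.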

How the data were processed

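Total RNA of 12 human libraries, 3 in each of 4 groups, was sequenced after ribosomal RNA depletion. Per the study's methods and the submitters' processing notes, the authors trimmed reads with fastp, quantified transcripts with Salmon and used DESeq2. STAR and hg38 are also named. Versions and the annotation are not given in the sources used here. The deposited signal values are each gene's mean, over the 6 libraries of a cell type, of counts divided by size factors. The deposited tables also hold the authors' log2 fold changes of *SMN*-KD against SCR with standard errors, p-values and adjusted p-values. These columns were not used. Depth per library is therefore unknown, and no interval is given.

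Levels were scaled to a sum of 1e+06 per table. Genes listed in both tables with a level of at least 10 in 1 of them were compared, with a pseudocount of 0.1 on the scaled level and a fold of 4. Shares and percentiles used the length of 1 transcript per gene (GENCODE release 44, GRCh38). This was the MANE Select transcript, failing that the Ensembl canonical one, failing that the longest. A length was found for 15713 and 18138 of the 16406 and 19016 identifiers. Words of 31 bases were compared between the members' transcripts and those of all other listed genes, in both orientations. The tolerance for a value kept under another setting was 1.5 times, since no spread is given.

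The members, the lists of partners and markers and the tests were chosen with earlier results of these data known. Members with a level of at least 100 in a table are described. Some are counted in the totals and shares but not reported here by name. Of the partners, those with the highest levels and any past 4-fold are named. The calculation of differences was run on simulated tables with planted folds. That run checks the arithmetic only, not the comparison of unlike cell types. Python 3.11.15, pandas 2.3.3, numpy 2.4.6, Biopython 1.88 and matplotlib 3.10.9 were used.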

Additional observations from a re-analysis of the deposited data

How the results depend on the processing

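No paired analysis was possible because the tables hold 1 mean over all 6 libraries of a cell type, with no value for a replicate number. For the same reason no library could be left out and no value has a replicate error. Scaling by the median ratio, leaving out the 50 highest genes, the minimum level, the pseudocount, the fold and the length used for shares were each changed in turn. Of 56 summary values, 53 stayed within 1.5 times of the reported one. With a pseudocount of 1 on the scaled level, 1 channel gene in place of 2 was past 4-fold toward i3Ns, without *SCN7A*, and with 2-fold in place of 4-fold there were 4 toward i3Ns and 11 toward iMNs. Of 233 values of single genes, 230 stayed within 1.5 times, and the other 3 came from the pseudocount of 1, which gave -3.07 for *SCN1A*, -2.87 for *CACNA1G* and -0.51 for *SCN4A*. That pseudocount also brought *SCN11A* (0.97) and *SCN4B* (-0.87) within 2-fold. A larger pseudocount pulls differences of low levels toward 0 by its construction. No difference changed its sign under the settings run. The minimum level and the fold do not enter a single gene's difference, so it stayed the same under them by construction. The changes of scaling shift all genes nearly alike, and a pseudocount cannot change a sign. Most of the 233 values could thus hardly move, and neither the count kept nor the kept signs measure how stable the differences are. Leaving out the 50 highest genes put 6 in place of 5 channel genes past 4-fold toward iMNs, with *SCN4A* added, and the *HCN3* identifiers were summed as a setting added after the data were seen.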

Other observations

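The sodium channel genes of 1 cluster did not share a direction. On chromosome 2 the genes *SCN3A*, *SCN2A*, *SCN1A*, *SCN9A* and *SCN7A* lie in a cluster between positions 165087526 and 166611482 of GRCh38, and their differences (log2 of i3N over iMN) were 0.03, -0.91, -4.42, 0.41 and 2.13. *SCN3A* and *SCN2A* lie on opposite strands and overlap between 165194993 and 165204050, although no 31-base word of the main transcript of either was found on the opposite strand of the other. On chromosome 13 *NALCN* and *FGF14* were both lower in i3Ns, at -0.83 and -1.88. On chromosome 11 the beta subunit genes *SCN4B* and *SCN2B* are neighbours, at -1.13 and -0.28.

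Word sharing was low for most channel genes. Of 39 transcripts examined, 25 shared under 1% of their 31-base words with other listed genes on the same strand, and the median was 0.305%. *SCN3A* and *SCN2A* shared 9.14% and 9.11%, mostly with each other, and *SCN9A* shared 5.90%. A listed gene overlapped 10 of the 39 channel genes in the annotation, on the opposite strand in 9. The sources used here do not state whether strand was used in counting.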
